A study of Mus musculus with 24 samples.

Results

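Choroid plexus genes were followed through pools of pineal glands, with retina for reference. The group was defined by symbol, as 10 genes of choroid plexus epithelium (Kl, Sostdc1, Folr1, Ttr, Clic6, Kcnj13, Kcne2, Slc4a5, Car12 and Cldn2), and the array held 19 probe sets for them. They are 10 of 18193 named genes. All 10 lay above the median of the array in enough pools to be tested in the pineal gland, among 11936 genes, and 9 of them in the retina, where Kl was too dim. The data came from 24 arrays (Affymetrix Mouse 430 2.0), 12 of pineal gland and 12 of retina. Each array measured RNA pooled from 6 glands or 6 retinas, and each combination of tissue, genotype and time had 3 pools. All mice were on a C57BL/6J background, of both sexes, 2 months old and kept in equal light and dark. All carried floxed NeuroD1 alleles on both chromosomes (NeuroD1flox/flox). Controls were NeuroD1flox::Crx-Cre-/- and conditional knockouts (cKO) NeuroD1flox::Crx-Cre+/-, in which the Crx promoter drives Cre recombinase, an enzyme that removes floxed DNA, in photoreceptors and pinealocytes. Controls thus carried no Cre, and the sources used here do not give the part of the gene that the floxed alleles lose. Tissue was taken at ZT6, in the middle of the light phase, and at ZT20, in the dark phase and under dim red light.

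The choroid plexus is a folded epithelium in the ventricles of the brain, and it secretes cerebrospinal fluid and closes the barrier between blood and fluid. The choroid plexus of the third ventricle hangs from the roof of that ventricle, near the stalk of the pineal gland. The epithelium is known for very abundant transthyretin, for ion and bicarbonate transporters at both of its surfaces, and for tight junctions that let cations and water pass. NeuroD1 is a basic helix-loop-helix transcription factor of neurons, photoreceptors and pinealocytes.

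Signal is the linear intensity that the authors deposited for a probe set, in array units. A gene with several probe sets is represented by the set with the highest mean log2 signal, and differences are given as log2(signal + 16) with the standard error (SE) of limma, a linear model that shares information on spread between genes. A gene was called at a Benjamini-Hochberg adjusted p under 0.05 over all genes tested. Levels of different genes are not compared, because probe sets bind unequally. In pooled tissue, a lower signal from fewer cells of a type and one from less RNA per cell cannot be told apart. The labels call the pools biological replicates and do not name the animals, so the pool is the unit of each test. The SEs, intervals and p-values of limma in the pineal fit draw mostly on the spread of genes of similar level. That spread counts for 157.17 degrees of freedom, against 8 from a gene's own pools. For one gene, the smallest p of an exact permutation test over 3 and 3 pools is 0.1.

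The targeted gene was lower in cKO than in control pools. Neurod1 read 4647, 5268 and 5008 in the control pineal pools at ZT6, while cKO pools of that time read 83.5, 29.1 and 30.9. At ZT20 it read 3156, 4323 and 3387 in control pools and 22.5, 1897 and 960.0 in cKO pools, so that 2 cKO night pools kept part of the signal. The log2 difference was -6.39 ± 0.34 (SE, n = 3 and 3) at ZT6 and -3.12 ± 0.34 at ZT20 (limma adjusted p = 1.6e-39 and 9.8e-13). The medians of the pineal arrays ran from 107.1 to 158.8, and their group means were 145.2 (control) and 121.5 (cKO) at ZT6 and 144.7 and 114.7 at ZT20. In control retina Neurod1 read 5701 to 7617, and in cKO retina 293.2 to 774.1 at ZT6 and 369.4, 3595 and 3582 at ZT20, so that 2 cKO night pools kept part of the signal there too. Of 9 matched pinealocyte markers, 8 lay above the array median in every pineal pool, with a summed signal of 54849 to 63316, but most of the list is shared with photoreceptors, and in retina pools the sum was 42138 to 52907. Among the markers also tested within the retina, Tph1, Chrna3, Lhx4 and Otx2 were called higher in control pineal gland than in control retina. Of these, Tph1 is a melatonin synthesis gene, and 3 others were lower (Sag, Gngt1 and Isl1). Aanat, also of melatonin synthesis, was too dim to be tested within the retina, so no call between tissues is given for it.

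RefSeq promoter entries (GRCm38.p6) were used for 6 of the 10 genes. Any entry of the 10 genes on 1 chromosome was left out, while the shares of all windows below kept that chromosome. The 250 bases before the start site are printed for the 4 of these genes that passed the test at ZT6. The deleted gene encodes a factor that binds E-boxes (CANNTG), and control of these genes by it was not tested. Capitals mark CAGCTG, and neither CAGATG nor TAATCC, the site of the Crx and Otx2 factors, occurs in these windows on either strand.
Kl, chr5:150952357-150952606, plus strand: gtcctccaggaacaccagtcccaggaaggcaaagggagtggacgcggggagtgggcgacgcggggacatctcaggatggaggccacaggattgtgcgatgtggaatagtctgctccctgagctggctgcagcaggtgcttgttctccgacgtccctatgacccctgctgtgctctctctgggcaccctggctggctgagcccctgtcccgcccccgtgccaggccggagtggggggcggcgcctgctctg
Cldn2, chrX:139800558-139800807, plus strand: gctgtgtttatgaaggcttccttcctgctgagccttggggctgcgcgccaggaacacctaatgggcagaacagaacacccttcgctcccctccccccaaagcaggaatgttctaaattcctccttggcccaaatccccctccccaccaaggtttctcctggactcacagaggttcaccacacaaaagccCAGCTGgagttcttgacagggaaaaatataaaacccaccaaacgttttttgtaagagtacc
Kcnj13, chr1:87394730-87394979, minus strand: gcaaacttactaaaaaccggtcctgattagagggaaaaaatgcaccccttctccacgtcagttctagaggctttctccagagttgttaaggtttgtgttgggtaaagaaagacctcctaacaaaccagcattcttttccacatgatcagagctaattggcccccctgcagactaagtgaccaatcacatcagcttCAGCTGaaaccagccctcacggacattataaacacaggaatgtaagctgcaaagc
Car12, chr9:66713436-66713685, plus strand: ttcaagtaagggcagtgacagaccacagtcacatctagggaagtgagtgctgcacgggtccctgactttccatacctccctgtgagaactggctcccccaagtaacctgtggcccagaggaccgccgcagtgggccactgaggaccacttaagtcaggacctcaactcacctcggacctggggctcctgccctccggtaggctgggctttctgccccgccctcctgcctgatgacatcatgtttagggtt
Entries for Kcne2, with 2 start sites, and Slc4a5 complete the set of 7 promoters. CAGCTG, which is its own reverse complement, was present in 2 of the 7 (Cldn2 and Kcnj13), and in 13.0% of all 32851 promoter windows of this length. CAGATG or its complement CATCTG was present in 1 of the 7, a Kcne2 promoter, and in 14.4% of all windows. TAATCC or its complement GGATTA was present in 0 of 7 and in 6.25% of all windows. A match is a run of letters and not a measured binding site, and the Kl and Car12 windows hold none of the runs searched for. Other runs of the form CANNTG were not searched for or marked. Some occur in the printed windows, such as CAGGTG in that of Kl and CACATG in that of Kcnj13.

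In the middle of the day, choroid plexus genes were higher in cKO pineal pools than in control pools. Of the 10 genes, 7 rose (Kl, Car12, Cldn2, Folr1, Sostdc1, Kcnj13 and Clic6), by 1.54-fold to 2.07-fold, and 0 fell, where 0.746% of all genes tested were called higher. The median log2 difference of the 10 was 0.80, beside 0.03 over all genes. In 8 of the 10 every cKO pool lay above every control pool, as it did in 7.49% of all genes. The remaining 3 genes, Slc4a5, Kcne2 and Ttr, did not pass the test.

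**Figure D1:**
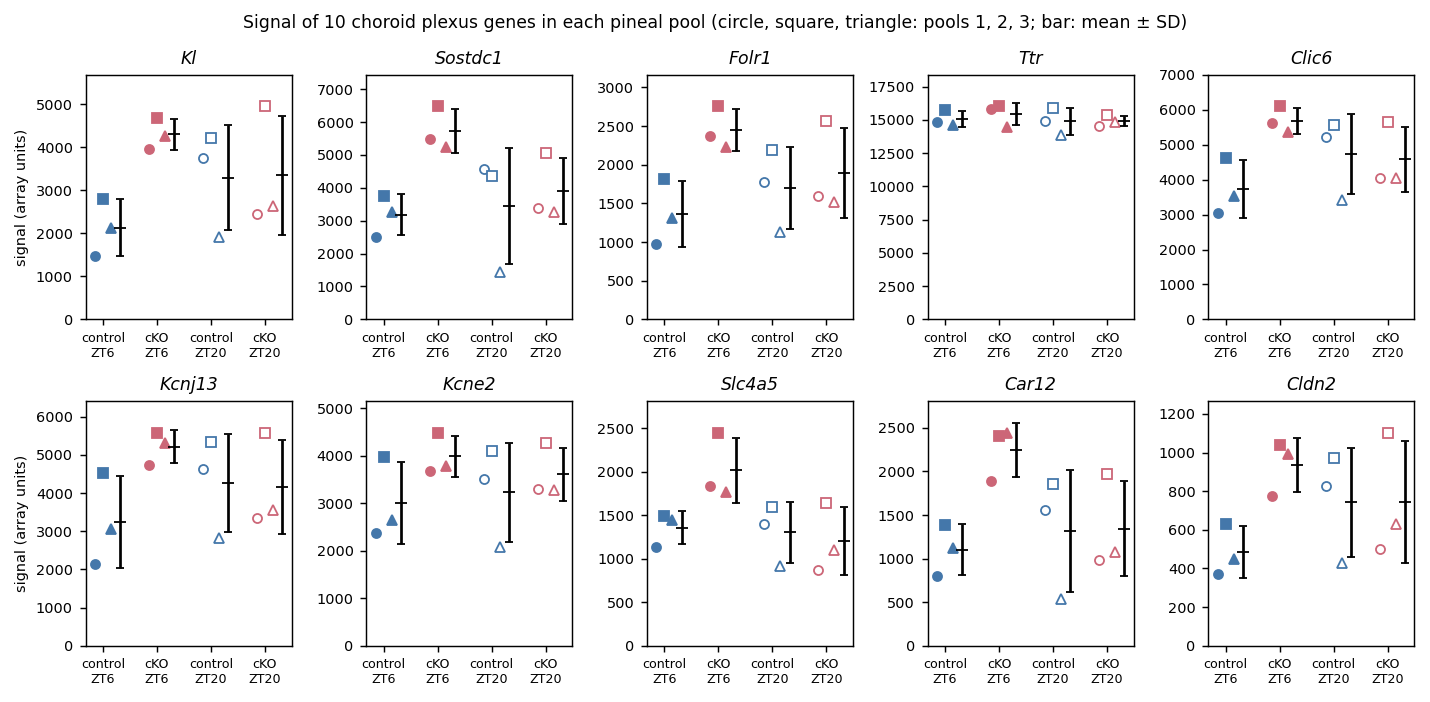
Signal in array units of each choroid plexus gene in each of the 12 pineal pools, with the 3 pools of a group as symbols and the mean ± SD beside them. At ZT6 every cKO pool lies above every control pool for 8 genes, at ZT20 the genotypes overlap for all 10, and Ttr is nearly flat.

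Among the secreted and surface proteins, Kl encodes Klotho, a membrane protein that serves as co-receptor for the hormone FGF23. Its signal at ZT6 was 1482.5, 2797 and 2115 in control pools and 3967, 4693 and 4262 in cKO pools. The lowest cKO pool was thus well above the highest control pool. The log2 difference was 1.05 ± 0.16 (SE, n = 3 and 3, limma adjusted p = 8.2e-07). Sostdc1, a secreted antagonist of bone morphogenetic proteins, read 2511, 3757 and 3273 in control pools and 5474, 6472 and 5235 in cKO pools, again without overlap. It differed by 0.86 ± 0.15 (adjusted p = 5.4e-05). Folr1, the folate receptor that carries folate into the fluid, read 971.7, 1821 and 1312 in control pools and 2375, 2753 and 2227 in cKO pools, and differed by 0.87 ± 0.18 (adjusted p = 7.6e-04).

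Ttr, the gene of transthyretin, which carries thyroxine and retinol-binding protein, stood apart from the rest. It read 14820, 15723 and 14604 in control pools and 15792, 16002 and 14476 in cKO pools at ZT6, and the pools overlapped. The log2 difference was 0.03 (95% interval -0.06 to 0.13, limma adjusted p = 0.962). Its signal was 74.3% to 83.0% of the highest signal on the same array in the 12 pineal pools, the other 3 Ttr probe sets ran only from 11772 to 14358, and the part of that position in the flat values was not tested.

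The ion channel genes were Clic6, of the chloride intracellular channel family, Kcnj13, an inwardly rectifying potassium channel of the apical membrane, and Kcne2, a small subunit of voltage-gated potassium channels. Clic6 read 3036, 4636 and 3534 in control pools and 5622, 6099 and 5361 in cKO pools at ZT6. Kcnj13 read 2145.5, 4527 and 3055 against 4739, 5580 and 5313. Both were without overlap, although control pool 2 came close to the cKO range in Kcnj13. The log2 differences were 0.63 ± 0.12 for Clic6 and 0.74 ± 0.14 for Kcnj13 (limma adjusted p = 2.2e-04 and 1.2e-04). Kcne2 read 2378, 3981 and 2655 in control pools and 3683, 4488 and 3795 in cKO pools. Control pool 2 lay within the cKO range, and the difference of 0.44 ± 0.14 did not pass (adjusted p = 0.10).

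The bicarbonate and junction genes were Slc4a5, an electrogenic sodium bicarbonate cotransporter, Car12, a carbonic anhydrase with its active site outside the cell, and Cldn2, the pore-forming claudin of leaky tight junctions. Car12 read 798.2, 1382 and 1126 in control pools at ZT6 and 1893, 2402 and 2444 in cKO pools, a log2 difference of 1.04 ± 0.21 (limma adjusted p = 3.3e-04). Cldn2 read 372.3, 631.4 and 450.7 against 777.0, 1040 and 992.4, a difference of 0.95 ± 0.21 (adjusted p = 0.0018). Slc4a5 read 1135, 1488 and 1441 in control pools and 1829, 2446 and 1770 in cKO pools. Its pools did not overlap either, but the difference of 0.56 ± 0.19 did not pass the test (adjusted p = 0.106).

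Other probe sets of the same genes, fitted as units of their own, gave similar sizes where they were bright enough. At ZT6 the second set of Clic6 differed by 0.90 ± 0.18 and that of Sostdc1 by 1.03 ± 0.27, and a cross-hybridising set of Car12 by 1.02 ± 0.32. The 3 further sets of Ttr differed by -0.01 to 0.02. The second sets of Kl and Cldn2 and the third of Car12 were too dim to be tested.

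The calls at ZT6 rested on the spread that limma assigned to these genes. In 9 of the 10 the spread between pools of one group was wide for their brightness. The residual SD of Kl was 0.48 against 0.17 for genes of similar level, that of Sostdc1 0.53 against 0.15, and that of Car12 0.59 against 0.22, and these 3 lay above the 98.7th percentile of all genes tested. Ttr, at 0.07, lay at the 1.37th percentile. The SDs that limma used were 0.20 for Kl, 0.19 for Sostdc1 and 0.25 for Car12, so their SEs are narrower than the pools alone would give. Without the mean-variance trend 0 of the 10 were called (limma adjusted p 0.203 to 0.988, 8 with an unadjusted p under 0.05). Quantile normalisation, trimmed-mean scaling, no filter on dim genes, and the mean of all probe sets of a gene also gave 0, with 8 or 9 at an unadjusted p under 0.05, and median centring gave 10. With median centring 4021 of all genes were called higher and 154 lower, against 89 and 145 without it, since it moved the median of all genes from 0.03 to 0.25. The median log2 difference of the 10 was 0.76 after quantile normalisation, 0.79 with trimmed-mean scaling, 0.66 with the mean of all probe sets and 1.03 with median centring. Same-numbered pools of both genotypes deviated together at ZT6, and with the replicate number as a block 8 of 10 were called, the added one being Slc4a5 (adjusted p = 0.043). Without control pool 1, 1 gene was called, Kl (difference 0.82, adjusted p = 0.030).

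**Figure D2:**
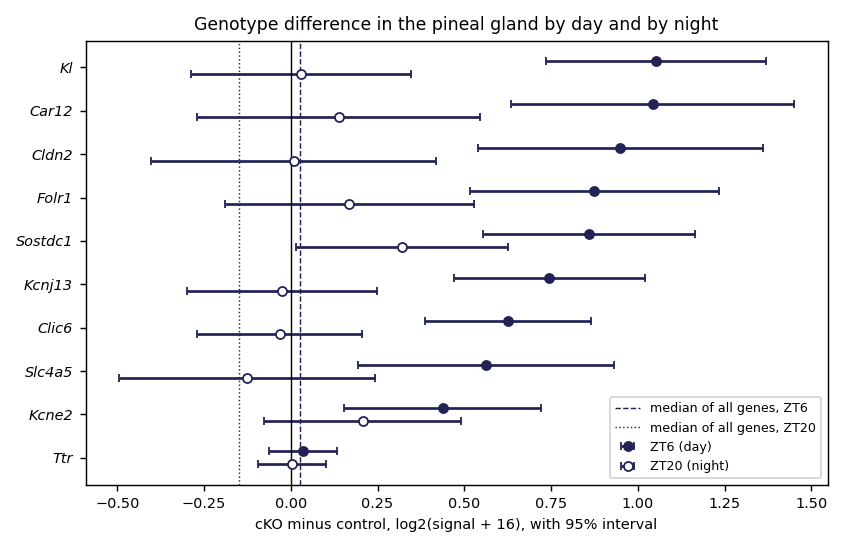
Difference between cKO and control pineal pools in log2(signal + 16) for each choroid plexus gene, with limma's 95% interval, at ZT6 (filled) and ZT20 (open), 3 pools a group. The broken and dotted lines mark the medians of all 11936 genes tested, 0.03 and -0.15. The ZT6 intervals of 9 genes lie above 0, and the ZT20 differences lie near 0.

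At night the choroid plexus genes of both genotypes lay in one range. At ZT20, 0 of 10 were called in limma, where 1.05% of all genes were called in either direction, and 1 of the 10, Sostdc1, had an unadjusted p under 0.05. For all 10 the pools of the genotypes overlapped, while 7.15% of all genes had pools without overlap. The median log2 difference was 0.02, beside -0.15 over all genes. Thus all 10 lay above the median of all genes, though 3 of them had small negative differences, and on quantile-normalised values the medians were 0.17 and 0.02.

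Kl read 3755.5, 4216 and 1906 in control pools at ZT20 and 2450, 4952 and 2641 in cKO pools. One control pool was low and one cKO pool was high, and the group means were nearly equal, 3293 ± 1222 and 3348 ± 1393 (SD, n = 3). The log2 difference was 0.03, with a 95% interval from -0.29 to 0.35. Sostdc1 read 4572, 4366 and 1428 in control pools, of which the third was far below the rest, against 3392, 5060 and 3249.5 in cKO pools. It differed by 0.32 ± 0.15 (unadjusted p = 0.040, limma adjusted p = 0.463). Folr1 read 1774, 2184 and 1128 against 1589, 2570 and 1524, a difference of 0.17 (95% interval -0.19 to 0.53).

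Among the transport genes, control pool 3 was again low at ZT20. Clic6 read 5215, 5558.5 and 3416 in control pools and 4040, 5650 and 4056 in cKO pools, and Kcnj13 read 4625, 5325 and 2830 against 3351, 5564.5 and 3544. Their differences were -0.03 and -0.03, with 95% intervals from -0.27 to 0.21 and from -0.30 to 0.25. In both, control pool 3 was the lowest of the 6 night pools. Car12 read 1563, 1857 and 531.8 against 984.0, 1968 and 1071 (difference 0.14, interval -0.27 to 0.54). Cldn2 read 825.1, 972.9 and 428.4 against 503.1, 1102 and 631.1 (difference 0.01, interval -0.40 to 0.42).

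Kcne2 read 3503, 4101 and 2084 in control pools at ZT20 and 3303, 4263 and 3282 in cKO pools, a difference of 0.21 (95% interval -0.08 to 0.49). Slc4a5 read 1392, 1595 and 919.1 against 869.2, 1638 and 1099, a difference of -0.13 (interval -0.49 to 0.24). Here a cKO pool, number 1, was the lowest of all. Ttr read 14941, 15883 and 13830 against 14552, 15328 and 14823 and differed by 0.00 (interval -0.09 to 0.10). Without control pool 1, 1 of the 10 was called at ZT20, and leaving out any other pool of these groups gave 0. Without both cKO pools that kept Neurod1 signal, 0 of 10 were called and the median difference was -0.21, beside -0.35 over all genes.

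Averaged over both times, 7 of 10 were called higher in cKO pools, where 0.335% of all genes were. These were again Kl (0.54 ± 0.11), Sostdc1 (0.59 ± 0.11), Car12 (0.59 ± 0.15), Folr1 (0.52 ± 0.13), Cldn2 (0.48 ± 0.15), Kcnj13 (0.36 ± 0.10) and Clic6 (0.30 ± 0.09), with limma adjusted p from 6.1e-05 to 0.045. This comparison holds the same pools as the previous ones. When control ZT6 pool 1 was left out it called 1 gene, and it called 2 when either cKO ZT20 pool 2 or control ZT20 pool 3 was. It called 0 under the settings that gave 0 at ZT6.

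The genotype difference itself was smaller at night for 3 of the 10 genes, where 0.36% of all genes were called in either direction. Subtracting the ZT6 difference from that at ZT20 gave -1.02 ± 0.23 for Kl, -0.77 ± 0.20 for Kcnj13 and -0.66 ± 0.17 for Clic6 (limma adjusted p = 0.011, 0.040 and 0.046). All 10 values were below 0, with a median of -0.70 beside -0.17 over all genes, and the other 7 did not pass. Leaving out control ZT6 pool 1, control ZT20 pool 2, cKO ZT20 pool 1 or cKO ZT20 pool 3 gave 0 calls, and leaving out cKO ZT6 pool 2 gave 1. Leaving out control ZT6 pool 2 gave 5, cKO ZT20 pool 2 gave 6 and control ZT20 pool 3 gave 7. On quantile-normalised, median-centred or trimmed-mean scaled values, and without the variance trend, it was 0.

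Day and night were also compared within each genotype. In control pineal pools 2 of 10 genes were higher at ZT20, Kl by 0.59 ± 0.16 and Kcnj13 by 0.41 ± 0.14 (limma adjusted p = 0.0069 and 0.046), where 8.52% of all genes changed in either direction. Their day and night pools overlapped. Leaving out control ZT6 pool 1 or control ZT20 pool 2 gave 0 calls, and control ZT6 pool 3 or control ZT20 pool 1 gave 1. Leaving out control ZT6 pool 2 gave 4, and control ZT20 pool 3 gave 6. It was 0 without the variance trend or after quantile normalisation.

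In cKO pools 3 of 10 genes were lower at ZT20, where 11.5% of all genes changed in either direction. Car12 fell by 0.80 (SE 0.21), Slc4a5 by 0.77 (SE 0.19) and Sostdc1 by 0.58 (SE 0.15), with limma adjusted p = 0.0035, 0.0015 and 0.0055. For Slc4a5 and Sostdc1 every night pool lay below every day pool, as it did in 17.9% of all genes, while the highest night pool of Car12, 1968, exceeded the lowest day pool, 1893. The median over the 10 genes was -0.40, beside -0.15 over all genes. Without cKO ZT20 pool 2, 8 genes were called, and without cKO ZT20 pool 3, 1. Without the variance trend or after quantile normalisation the count was 0.

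The order of the 4 pineal groups was alike for most members. The cKO group at ZT6 had the highest mean for all 10 genes, and the control group at ZT6 had the lowest mean for 8 (Kl, Cldn2, Folr1, Sostdc1, Clic6, Kcnj13, Kcne2 and Car12). For these 8 the cKO and control night groups lay between, while for Slc4a5 and Ttr both night groups had the lowest means. For Sostdc1 and Slc4a5 the cKO day pools lay above all pools of the next group. All other neighbours in a gene's order overlapped in their pools. For Kl the order of means was 4307 ± 365 (cKO ZT6), 3348 ± 1393 (cKO ZT20), 3293 ± 1222 (control ZT20) and 2131 ± 657 (control ZT6) (SD, n = 3 each).

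The 10 genes rose and fell together from pool to pool, also within groups. As deviations from the group means over the 12 pineal pools, all 45 pairs of genes had a positive Pearson correlation, from 0.69 (Ttr and Car12) to 0.99 (Folr1 and Clic6), with a median of 0.91. All genes of a pool share their array and its scale. The mean over the 45 pairs was 0.89, beside 0.52 over pairs of all genes tested. After quantile normalisation, which removes that scale, these values were 0.91 and 0.02.

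**Figure D3:**
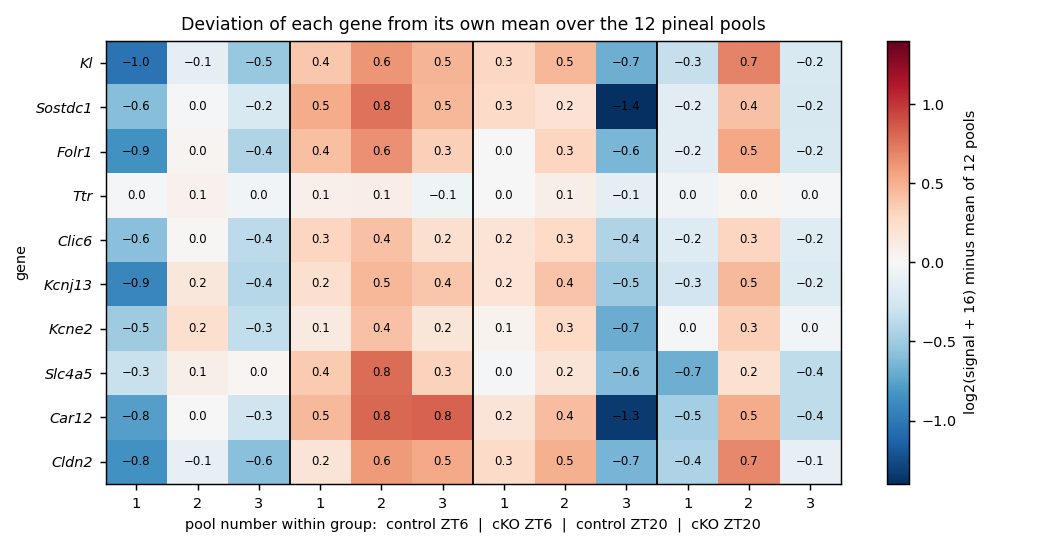
Deviation of each choroid plexus gene from its own mean over the 12 pineal pools, in log2(signal + 16), printed in each cell and coloured from blue (below) to red (above). Whole columns share a colour: control ZT6 pool 1 and control ZT20 pool 3 are low, and the cKO ZT6 pools and cKO ZT20 pool 2 are high, with Ttr near 0 throughout.

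The pools could be placed by the median deviation of the 10 genes from their means over the 12 pools. In control pools at ZT6 this was -0.68, 0.03 and -0.36, and in cKO pools 0.33, 0.60 and 0.36. In control pools at ZT20 it was 0.19, 0.29 and -0.65, and in cKO pools -0.22, 0.43 and -0.20. Control ZT6 pool 1 was the lowest of all 12 pools for 5 genes and control ZT20 pool 3 for 4, and cKO ZT6 pool 2 was the highest for 7. Thus control pools of both times covered most of the whole range, from -0.68 to 0.29, beside -0.22 to 0.60 in cKO pools. The cKO night pool with the most Neurod1 signal, 1897, was also the one with the highest choroid plexus genes in its group.

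Genes outside the list were searched for the same course. The 10 tested genes whose deviations from the group means were most like the mean of the members over the 12 pools were Kcnk1 (r = 0.996), Sowahc (0.991), Htr2c (0.982), Wwc1, Rsph1, Npr3, Dsg2, Frem1, Rsph4a and Elovl7 (0.977). Kcnk1 encodes a potassium channel with paired pore domains, Htr2c a serotonin receptor abundant in choroid plexus, and Rsph1 and Rsph4a proteins of the radial spokes of cilia. These correlations are a description over 12 pools that share an array scale. At ZT6, 8 of these 10 genes were called higher in cKO pools, where 0.746% of all genes tested were. Rsph1 (0.65, limma adjusted p = 0.070) and Npr3 (0.39, adjusted p = 0.461) did not pass. The 10 were picked for their likeness over these same pools, so their calls are not a separate test. The cKO pools were higher in Rsph4a by 0.86 (adjusted p = 0.017), in Kcnk1 by 0.80 (limma adjusted p = 4.5e-04), in Htr2c by 0.81 (adjusted p = 0.0019) and in Elovl7 by 1.08 (adjusted p = 9.5e-05). At ZT20 none of the 10 passed, with differences from -0.20 (Npr3) to 0.28 (Rsph4a).

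Further genes known from choroid plexus were taken as a list of 48, of which 43 were on the array and 37 were tested. At ZT6, 14 of the 37 were higher in cKO pools and 0 lower, with a median of 0.44. At ZT20, 0 of 37 were called in either direction, with a median of -0.04. The members, with 7 of 10, and this list stand beside the same 0.746% of all genes. Both were chosen with earlier results of these data known, and the members moved together from pool to pool. These counts are therefore no independent test.

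By role, 2 of 5 secreted proteins rose at ZT6, Igfbp2 (0.66 ± 0.18) and Igf2 (0.64 ± 0.13), a binding protein and a growth factor of the insulin-like family (limma adjusted p = 0.019 and 5.7e-04). Of 9 ion and water transport genes 2 rose, the calcium-permeable channel Trpv4 (0.92 ± 0.22) and the anion exchanger Slc4a2 (0.53 ± 0.15). The water channel Aqp1, at 0.44 ± 0.18, did not pass (adjusted p = 0.316). Of 7 solute transport and junction genes 3 rose, the monoamine transporter Slc29a4 (1.00 ± 0.23), the claudin Cldn1 (0.74 ± 0.19) and the sulfate transporter Slc13a4 (0.57 ± 0.14). Of 7 receptor and surface genes 3 rose, Htr2c (0.81 ± 0.18), the coagulation factor F5 (0.80 ± 0.14) and Steap1 (0.74 ± 0.19). Of 9 transcription factor, matrix and cytoskeleton genes 4 rose, Vat1l (0.83 ± 0.16), Ezr, which anchors actin to microvilli (0.74 ± 0.18), the collagen gene Col8a2 (0.64 ± 0.16) and Krt18, a keratin of simple epithelia (0.40 ± 0.11).

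Genes of the pathways that the 10 proteins serve were read from a further list. Of 61 listed partners 54 were on the array and 39 were tested. At ZT6, 3 of the 39 were higher and 0 lower, where 0.746% of all genes were called higher, and their median was 0.14 beside 0.03 over all genes. The 3 were the thyroxine transporter Slco1c1 (0.83 ± 0.14, limma adjusted p = 2.9e-05), and Slc4a2 and Cldn1, which the choroid plexus list also holds. For Klotho, 0 of 3 tested genes passed, and its receptor partner Fgfr1 differed by 0.12. For Sostdc1, 0 of 7 genes of the BMP and WNT pathways passed, with Bmp6 at 0.57 (adjusted p = 0.161). For Folr1, 0 of 6 folate genes passed, and Folr2, a folate receptor of macrophages, stood at -0.56 (adjusted p = 0.25).

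Markers of other cells were read in the same pools. In the ependyma list, ciliated cells that line the ventricles, 3 of 8 markers were bright enough to be tested and 0 passed at ZT6, with a median of 0.22. The summed signal of the 8 was 2417 to 3758 in control and 3005 to 4023 in cKO pools at ZT6, and 2838 to 3967 and 2527 to 3410 at ZT20, and 4 or 5 of the 8 lay below the array median in all pools of a group. In control ZT20 pool 3, where choroid plexus genes were low, the median deviation of the ependyma markers was -0.74. Their part in the results was not tested.

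Among 11 meningeal markers, 1 rose at ZT6, Igf2, which the choroid plexus list also holds, and 1 fell, Slc22a6, an organic anion transporter (-1.25 ± 0.24, limma adjusted p = 1.9e-04). The summed signal of the 11 was 35875 to 43066 in control and 33473 to 42459 in cKO pools at ZT6. Of 8 tested pinealocyte markers, 0 passed at ZT6 (median 0.04) and 0 at ZT20 (median -0.01). Of 9 endothelial and mural markers 0 passed at ZT6, and of 7 markers of the retinal pigment epithelium and 5 of astrocytes also 0. Of 3 tested markers of habenula and brain neurons 1 fell, Nrgn (-1.03 ± 0.27).

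Blood markers were lower in cKO pools at ZT6, where 145 of all 11936 genes tested were called lower. All 4 tested, the granulocyte genes S100a8 (-2.07 ± 0.23), S100a9 (-1.64 ± 0.18) and Camp (-1.64 ± 0.25) and the erythroid gene Alas2 (-1.11 ± 0.20), were lower in cKO pools (limma adjusted p at most 7.7e-05). The summed signal of the 5 matched markers was 6639 to 11860 in control and 2576 to 3219 in cKO pools, and control pool 1, with the lowest choroid plexus genes, had the highest sum. At ZT20 the sums were 1872 to 6365 and 3274 to 7153, and 0 of 4 passed. There control pool 2 and cKO pool 2 were highest in their groups in both the blood sum, 6365 and 7153, and the median deviation of the choroid plexus genes. Their part in the results was not tested. The log2 ratio of 3' to 5' signal of Actb, a sign of RNA quality, was 1.08 to 1.24 in control and 1.08 to 1.29 in cKO pools at ZT6, and 1.07 to 1.30 and 1.34 to 1.50 at ZT20.

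**Figure D4:**
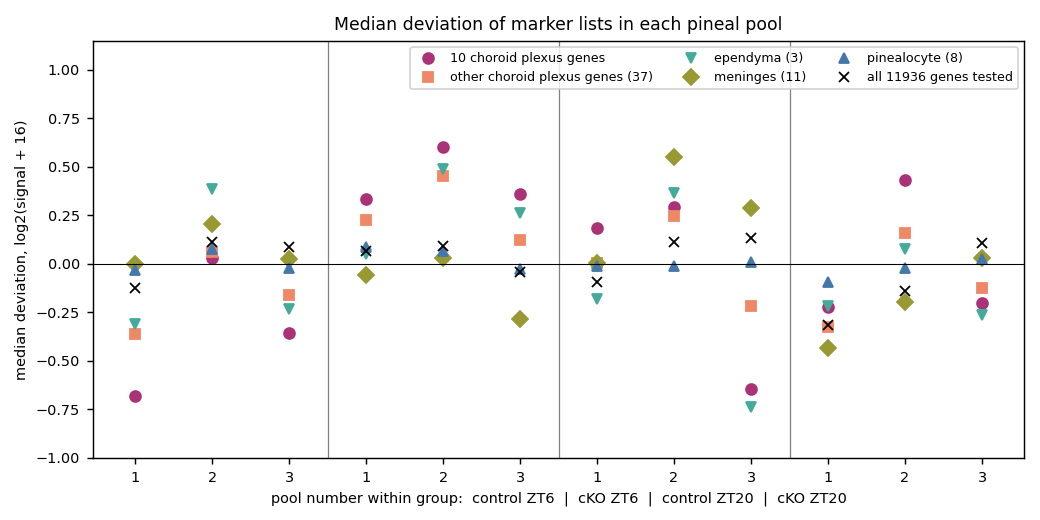
Median deviation from the mean over the 12 pineal pools, in log2(signal + 16), of the 10 choroid plexus genes, 37 other choroid plexus genes and 3 marker lists, with all 11936 genes as crosses. The 10 genes range from -0.68 to 0.60, the other choroid plexus genes lie on the same side of 0 in each pool, and the pinealocyte markers stay between -0.09 and 0.09.

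Retina served as reference for the levels. In controls, 8 of the 9 genes that were also tested within the retina were higher in pineal gland, where 51.3% of all 12881 genes tested over both tissues were. Kl read 1482.5 to 4952 in all 12 pineal pools (median 3276) and 26.4 to 75.8 in all 12 retina pools (median 50.9), where it lay below the array median on every array. It entered the fit over both tissues only through the pineal pools, so no size or test is given. Cldn2 lay above the array median on 4 of the 12 retina arrays, with 20.6 to 159.5 there and 372.3 to 1102 in pineal pools. The log2 differences between control tissues were 2.88 ± 0.19 for Sostdc1, 2.77 ± 0.16 for Clic6, 2.29 ± 0.27 for Folr1, 2.29 ± 0.19 for Kcnj13 and 1.31 ± 0.15 for Slc4a5 (SE, n = 6 and 6, limma adjusted p at most 9.9e-09). Probe sets of one gene differed in size for Car12, 1.99 and 1.03, and for Ttr, 1.22 against 0.61 to 0.72 in the other 3 sets, and Ttr is near the top of the pineal arrays. Kcne2 differed by -0.22 ± 0.13 (adjusted p = 0.114), with 2084 to 4488 in pineal and 2556 to 4046 in retina pools, so that the tissues overlapped.

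**Figure D5:**
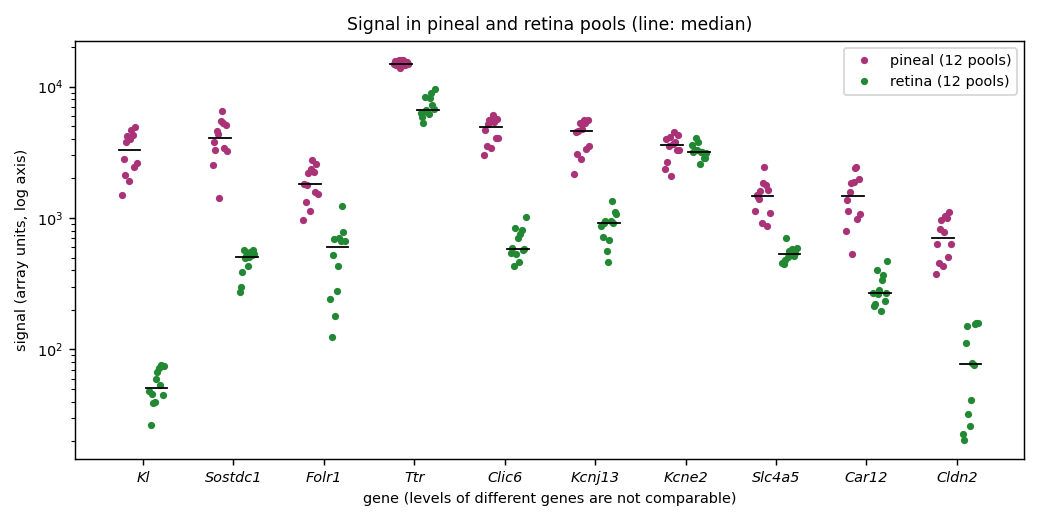
Signal in array units, on a log axis, of each choroid plexus gene in the 12 pineal and 12 retina pools, with the median as a line. For 8 genes every pineal pool lies above every retina pool, while the Kcne2 and Folr1 ranges overlap.

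In the retina, Ttr is known as a product of the pigment epithelium, which also uses Kcnj13. Ttr read 6318, 5885 and 5244 in control retina at ZT6 and 6147, 8199 and 8925 in cKO retina. It rose by 0.40 ± 0.14, although the pools overlapped, and Sostdc1 rose by 0.62 ± 0.19, without overlap (limma adjusted p = 0.049 and 0.026). These were 2 of 9 genes, where 24.4% of all genes changed in either direction, and the median of the 9, 0.34, was near that of all genes, 0.29. The count was 0 without control pool 2, cKO pool 2 or cKO pool 3, and 1 without control pool 1 or on quantile-normalised values.

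At ZT20, 0 of 9 passed in the retina (limma, 4 with an unadjusted p under 0.05), where 6.52% of all genes changed. Folr1 was uneven there, with 688.0, 180.2 and 279.4 in control and 1240, 781.5 and 670.1 in cKO pools, and its difference of 1.36 ± 0.44 had an adjusted p of 0.081. Without control pool 1, 3 of the 9 were called. The summed signal of 10 markers of retinal pigment epithelium was 9892 to 16476 in control and 16755 to 22092 in cKO retina at ZT20, and 8570 to 15007 and 8495 to 18506 at ZT6. Its part was not tested.

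The cKO effect at ZT6 was also compared between the tissues. Subtracting the retinal from the pineal difference gave values from -0.37 (Ttr) to 0.74 (Car12), with a median of 0.37 beside -0.27 over all genes. In limma 0 of 10 were called, where 5.71% of all genes were, and 2 had an unadjusted p under 0.05. Kl entered this fit through the pineal pools alone, so its own value is not given. Leaving out control ZT6 pineal pool 2 or cKO ZT6 retina pool 1 gave 1 call, and leaving out any other of the 12 pools gave 0.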

How the data were processed

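Values were the linear signal intensities that the authors deposited, 1 for each of 45101 probe sets and array, with GCOS named in the submitters' processing notes. The sources used here give no scaling, detection calls or version. The labels' protocols name the RNeasy Micro kit for RNA and NuGEN Ovation kits for amplification. Names of probe sets came from the platform table (34945 with 1 symbol, 932 with several, 9160 with none, beside 64 controls), and only those with 1 symbol were used. Groups came from the sample titles.

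The tests used log2(signal + 16), not normalised further, and limma 3.58.1 (R 4.3.3), with 1 mean per group and a variance trend, in each tissue and over both. The pseudocount understates changes of dim genes. A gene was tested if it lay above the array median on at least 3 arrays. P-values are two-sided. The number of arrays limits precision. In simulated data for cKO against control at ZT6 (11936 genes), 12 of 50 genes changed by 0.5 (log2) were recovered. So were 42 of 50 changed by 1, 43 of 50 changed by -1 and 50 of 50 changed by 2. Of 152 calls, 5 were false. How far these counts hold for the real pools, where all genes of a pool share an array scale, was not tested. Same-numbered control and cKO pineal pools of ZT6 deviated together (r = 0.19, 0.35 and 0.32). No label says what a number shares, and pools of unlike number were not compared, so a pairing is not shown. At ZT20 r was 0.20, 0.12 and 0.07.

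The 10 genes and all lists were chosen with earlier results of these data known. Named in the text are all 10, up to 4 called genes of each list with the largest differences, or up to 2 bright ones where none passed, and the 10 genes most like them. Of 174 list entries, 14 were not matched. Promoter sequences are RefSeq's (GRCm38.p6). Alternatives were other scalings, pseudocounts, filters, probe set rules, variance models, the replicate block and leaving out pools.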

Additional observations from a re-analysis of the deposited data

Results flagged for a closer look

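For 3 genes the cKO effect in the pineal gland differed between ZT20 and ZT6 by the test of the difference itself. Kl, the FGF23 co-receptor, gave -1.02 (log2 difference of differences), Kcnj13, a potassium channel, -0.77, and Clic6, of the chloride intracellular channel family, -0.66 (limma adjusted p = 0.011, 0.040 and 0.046). Each was higher in every cKO than in every control pool at ZT6, and overlapped at ZT20. In the other 7 genes the same difference had an adjusted p of 0.201 or more.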

How the results depend on the processing

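Dim second probe sets could not be read, and the spread of 3 pools a group is poorly known. No scan date was used. The settings that leave out pool 3 of both ZT6 groups or both cKO ZT20 pools with Neurod1 signal, those that join 2 choices, and the fit of single probe sets were chosen after seeing the data. The cause of the changes below was not tested. Pseudocounts of 1 and 64 left 7 calls at ZT6.

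The count of choroid plexus genes called between cKO and control at ZT6 in the pineal gland, 7, became 0 after quantile normalisation or trimmed-mean scaling, without the filter or the variance trend, and with the mean of all probe sets, and 1 without the trend and with the replicate block. Leaving out 1 pool gave 1 to 8. Averaged over both times, 7 became 0 under the same 5 settings, 1 without both cKO ZT20 pools of residual Neurod1 and 4 without pool 3 of both ZT6 groups. Leaving out 1 pool gave 1 to 8 there, and 0 to 1 at ZT20 against a count of 0. For the effect at ZT20 minus ZT6, 3 became 0 under those 5 settings, with median centring and with the probe set of highest variance, 1 with a pseudocount of 1 or without pool 3 of both ZT6 groups, and 6 without both pools of residual Neurod1, with 0 to 7 on leaving out 1 pool.

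For ZT20 against ZT6 in control pools, 2 became 0 under the same 7 settings, 1 with a pseudocount of 1 or without pool 3 of both ZT6 groups, and 4 on the arrays of the compared groups alone or with the replicate block, with 0 to 6 on leaving out 1 pool. In cKO pools, 3 became 0 after quantile normalisation or without the trend, 1 with median centring, trimmed-mean scaling, no filter or the mean of all probe sets, 5 on the compared arrays alone or with the replicate block, and 7 without both pools of residual Neurod1, with 1 to 8 on leaving out 1 pool. These day and night pools are not shown to be paired.

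In the retina at ZT6, 2 became 0 with the probe set of highest variance or the replicate block and 1 under those 3 scalings, without the filter or the trend, and with the mean of all probe sets, with 0 to 3 on leaving out 1 pool. At ZT20, 0 became 1 under the 3 scalings and on the compared arrays alone, and leaving out 1 pool gave 0 to 3. For pineal minus retina, 0 became 1 with median centring, and leaving out 1 pool gave 0 to 1. The replicate block changed no call beyond those given here and, averaged over both times, 1 more, 8 of 10.

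None of the differences that turned in sign was called, and they include Sostdc1, the largest at ZT20 (0.32 to -0.22 without control pool 3). Between cKO and control at ZT20, Clic6, Kcnj13 and Slc4a5 turned to 0.053, 0.071 and 0.048 after quantile normalisation, 0.27, 0.27 and 0.17 with median centring, and 0.12, 0.12 and 0.022 with trimmed-mean scaling. With the mean of all probe sets Clic6 turned to 0.010 and Car12 to -0.15, and with the set of highest variance Clic6 to 0.053. Without both cKO pools of residual Neurod1, Kl turned to -0.34, Cldn2 to -0.47, Folr1 to -0.041, Ttr to -0.030 and Car12 to -0.23. Leaving out 1 pool at ZT20 gave -0.32 to 0.25 for Kl, -0.34 to 0.25 for Cldn2, -0.10 to 0.37 for Folr1, -0.22 to 0.61 for Sostdc1, -0.048 to 0.051 for Ttr, -0.25 to 0.10 for Clic6, -0.29 to 0.16 for Kcnj13, -0.078 to 0.41 for Kcne2, -0.37 to 0.080 for Slc4a5 and -0.41 to 0.47 for Car12. For Ttr it gave -0.0068 to 0.043 over both times and -0.083 to 0.017 for ZT20 minus ZT6, where median centring gave 0.041 and trimmed-mean scaling 0.13.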

Other observations

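Further choroid plexus genes were also read across day and night and in the retina. In cKO pineal pools 11 of 37 were lower at ZT20 than at ZT6 and 0 higher, where 1015 of 11936 genes were lower and 354 higher, with a median of -0.35 beside -0.15 over all genes. In control pools 4 of 37 were higher and 0 lower, where 631 of 11936 genes were higher and 386 lower. In the retina 14 of 35 were higher in cKO pools at ZT6 and 0 lower, where 2723 of 11696 genes were higher and 134 lower, and the median over all genes was 0.29 and theirs 0.55. Of 39 tested over both tissues, 28 were higher in control pineal gland than in control retina and 8 lower, where 6606 of 12881 genes were higher and 2970 lower. The 39 include genes too dim to be tested within the retina, where 35 were tested. Such genes could enter through their pineal pools, so the count of 28 is no test of a tissue difference.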
